A study of Homo sapiens with 4 samples.

Results

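The genes described here are 40 genes of DNA replication and of the passage from G1 into S phase, taken from the deposited count table by their symbols. All 40 had a row among its 40205 genes. The rule that picks them uses no measured value, but the set was proposed with earlier results of these data known. The cells were SKOV3, a human ovarian cancer cell line, grown in medium with fetal bovine serum. One group of 2 libraries came from cells given the ginseng saponin 20(S)-Rg3 (labelled Exp) at 80 µg/mL for 24 h, and the other group of 2 from control cells (labelled NC). The labels do not say whether controls received a vehicle. Each library was made from pooled RNA, per the labels, and whether both libraries of a group stem from different cultures is not said there. The p-values below therefore reflect variation among 4 libraries, part of which may be technical.

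DNA replication begins with licensing. The origin recognition complex, CDC6 and CDT1 load the ring of MCM2 to MCM7 onto DNA in G1. At the start of S phase CDC45 and the GINS complex join that ring to form the active helicase, and polymerases, the sliding clamp PCNA and its loader follow. Many of these genes are switched on late in G1, when cyclin E with its kinase phosphorylates the RB proteins and frees the E2F transcription factors. Tumour cell lines that divide in culture normally express the whole set.

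Promoter windows from RefSeq (GRCh38.p14, 250 bases before to 50 bases after an annotated start) were held for 35 of the 40 genes. Short stretches are shown for 8 of the 14 genes in which the letters given next lay upstream of the start. These 8 were picked with the results below in view and do not represent the 40 genes. Capitals mark the letters TTTCCCGC, TTTGGCGC, TTTCGCGC or TTTGCCGC, or their reverse complements, the form of site that E2F factors are known to bind. E2F2 had the lowest fitted value with Rg3, and MCM6 was among the few genes that were higher in both Rg3 libraries. CDT1, POLE, LIG1 and E2F1 were among the genes with the largest excess in Rg3 replicate 1 over Rg3 replicate 2, RFC3 differed in the other direction, and PCNA differed less. POLD1, ORC6, RRM1, RRM2 and RFC4 also stand out below, but their windows held none of these letters, so no stretch of theirs is shown. Each stretch has 60 bases, lies upstream of the start and is written 5′ to 3′ on the strand of the gene.
E2F2 (chr1:23531242-23531301, minus strand): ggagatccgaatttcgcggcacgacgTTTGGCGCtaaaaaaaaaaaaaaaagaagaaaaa
MCM6 (chr2:135876496-135876555, minus strand): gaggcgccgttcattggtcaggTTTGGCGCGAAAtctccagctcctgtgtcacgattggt
CDT1 (chr16:88803728-88803787, plus strand): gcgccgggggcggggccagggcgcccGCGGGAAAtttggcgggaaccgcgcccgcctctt
POLE (chr12:132687343-132687402, minus strand): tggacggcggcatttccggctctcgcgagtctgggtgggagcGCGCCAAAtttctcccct
LIG1 (chr19:48170425-48170484, minus strand): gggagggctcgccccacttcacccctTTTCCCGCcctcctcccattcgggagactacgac
E2F1 (chr20:33686386-33686445, minus strand): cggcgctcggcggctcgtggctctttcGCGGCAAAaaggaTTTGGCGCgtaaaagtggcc
RFC3 (chr13:33818068-33818127, plus strand): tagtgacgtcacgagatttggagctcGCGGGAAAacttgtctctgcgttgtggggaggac
PCNA (chr20:5126648-5126707, minus strand): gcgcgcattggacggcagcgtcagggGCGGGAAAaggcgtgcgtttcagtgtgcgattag

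The E2F-type letters stood in the windows of 21 of the 35 genes (60%, exact binomial 95% interval 42.1% to 76.1%), against 3.99% of all 27305 genes with a window. They were found for CDC6, CDT1, MCM2, MCM3, MCM6, MCM7, GINS1, GINS2, GINS3, PCNA, RFC3, POLA1, POLA2, POLE, POLE2, LIG1, EXO1, TYMS, E2F1, E2F2 and CLSPN. With the 250 bases before the start alone the share was 40% against 3.40% of all genes. The 7 genes that had no match there were CDC6, MCM2, GINS1, GINS3, POLE2, EXO1 and CLSPN, whose matches lay across or just after the start. CCAAT, searched on both strands, stood in 54.3% of these windows and in 39.7% of all, and GGGCGG, which can overlap the E2F-type letters, in 74.3% and 48.3%. The members' windows had a median of 66% G and C, against 58.3% for all genes with a window, which include genes not tested here. The part of this difference in the shares was not tested. For the E2F-type letters the share was 9.09% among 22 genes of the mitosis list described below. A match describes letters only and is not a measured site. The median log2 fold change with Rg3 was 0.006 for the 21 genes with the E2F-type letters and −0.004 for the 14 without. The median of Rg3 replicate 1 minus Rg3 replicate 2 on the log2 CPM scale was 0.0009 for the genes with these letters and −0.29 for those without, and this difference was not tested.

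The replication genes took the same part of the RNA in all 4 libraries. Their counts together were 0.426% and 0.427% of all counts in the controls, 0.425% in Rg3 replicate 1 and 0.429% in Rg3 replicate 2. In CPM, the counts scaled to library size with TMM factors, their sum was 4237 and 4315 in the controls and 4156 and 4372 with Rg3. Both controls lay between the Rg3 libraries on this scale. Abundant genes weigh most in such a sum, and RRM1 alone measured 431 and 475 CPM in the controls, then 388 and 555 CPM with Rg3. Counts of single members ran from 340 to 13378, and all 40 passed the filter on low counts. In bulk RNA a change in the number of cells in S phase and a change in RNA per cell cannot be told apart.

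No replication gene was called higher or lower with Rg3. Of the 40, 0 passed an adjusted p of 0.05 in edgeR's quasi-likelihood test, where 0.0306% of the 16323 genes tested did, and 0 had an unadjusted p under 0.05, where 4.73% of all genes did. DESeq2 and limma voom also called 0 of the 40, with 1 member each, E2F2, under an unadjusted 0.05. Of the 16323 genes DESeq2 called 36 higher and 18 lower, and voom called 5 higher and 0 lower. The fitted log2 fold changes were above 0 for 20 members and below 0 for 20, where 52.5% of all genes were above 0. Their median was 0.001, beside 0.014 over all genes tested. The values ran from −0.46 to 0.24, and 26 of the 40 were within 0.1 of 0.

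**Figure D1:**
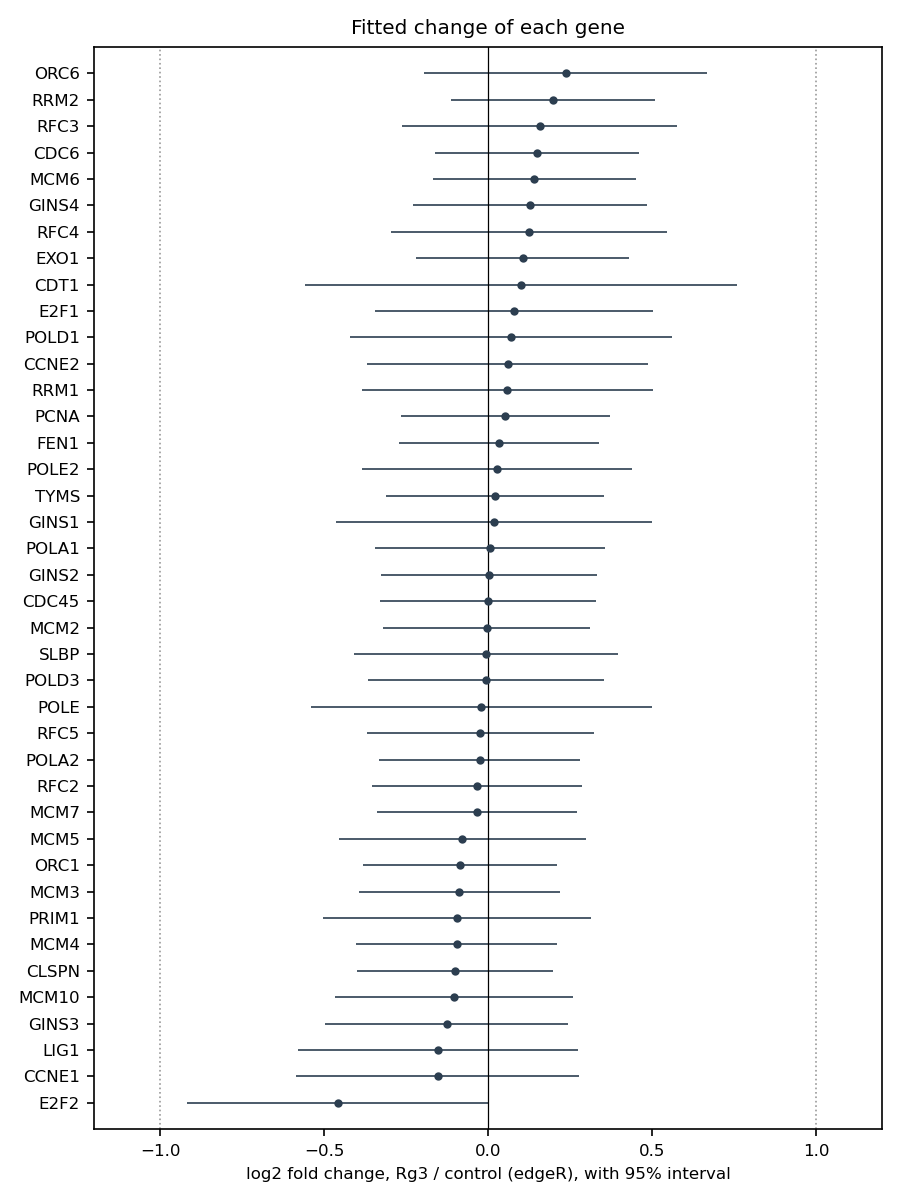
Fitted log2 fold change of each of the 40 genes, Rg3 over control (points), with its 95% interval (bars), sorted by value; dotted lines mark a 2-fold fall and rise. The values run from −0.46 (E2F2) to 0.24 (ORC6), and every bar lies between the dotted lines.

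The intervals of these values were narrow. In each of the 40 genes the 95% interval of the fold change lay between 0.529 and 1.69, so a 2-fold rise or fall was outside it for every member taken singly. For 36 of the 40 it lay within 1.5-fold in both directions. Standard errors of the log2 fold changes ran from 0.13 to 0.28. A miss of the threshold does not show equal expression, and changes within these bounds were not excluded with 2 libraries a group. The bounds are not the size at which a change would have been called at the adjusted threshold.

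Most members overlapped between the groups, as most of all genes tested did. In 29 of the 40 the CPM of the 2 groups overlapped, in 3 both Rg3 libraries lay above both controls (15.3% of all genes did so), and in 8 both lay below (17.0% of all genes). The first share is below that of all genes and the second is near it.

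**Figure D2:**
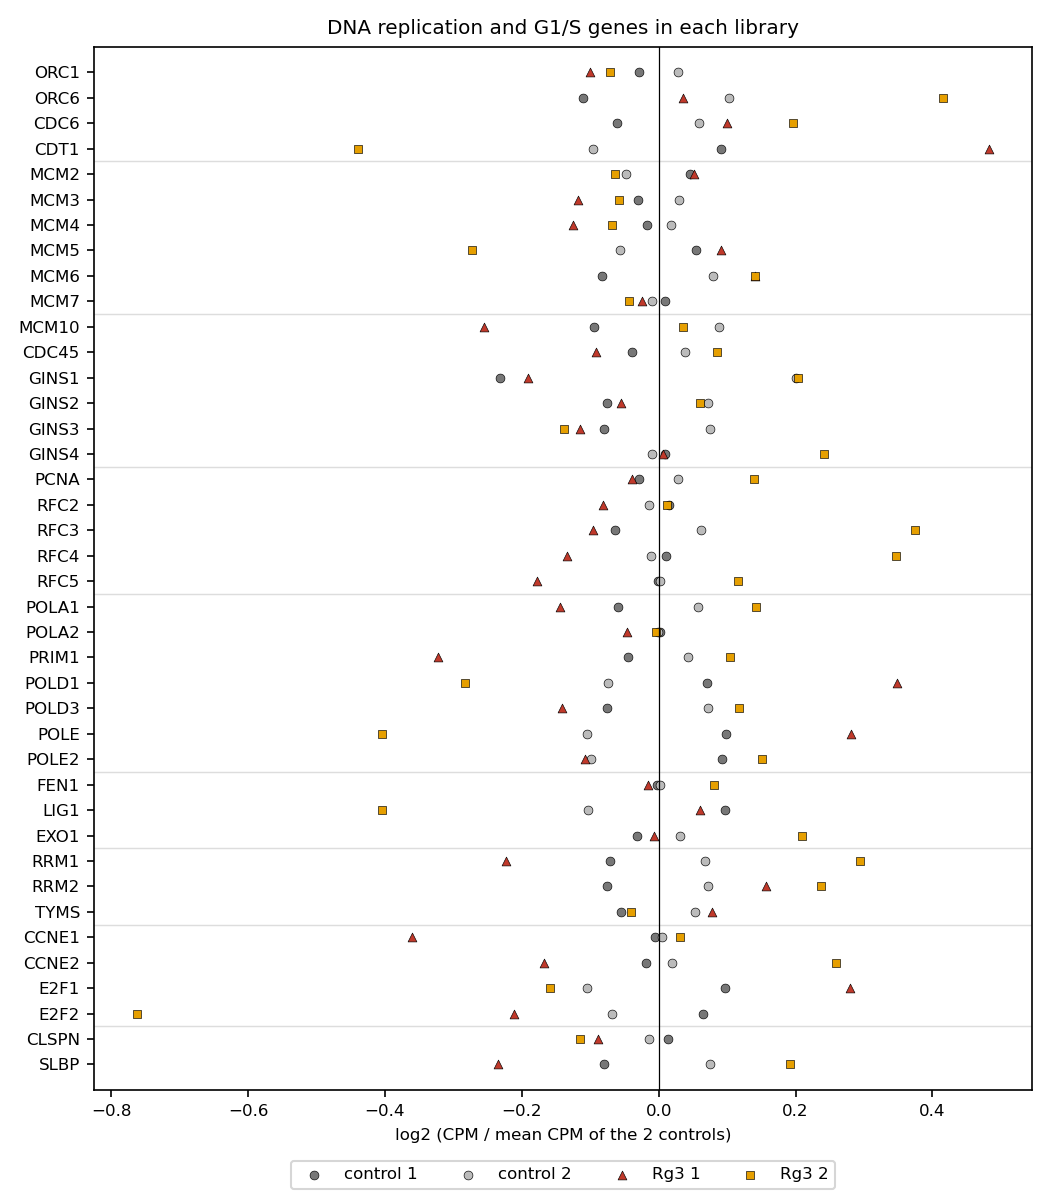
Level of each gene in each library as log2 of its CPM over the mean CPM of the 2 controls; grey circles are controls, triangles Rg3 replicate 1 and squares Rg3 replicate 2, and lines separate the roles. The Rg3 symbols lie on both sides of the controls, with CDT1, POLE and POLD1 high in replicate 1 and RRM1, RFC3 and RFC4 high in replicate 2.

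Among the genes of origin recognition and licensing, 3 of 4 had a value above 0 and 0 passed the test. CDC6, the ATPase that helps to load the MCM ring, measured 144 and 156 CPM in the controls, then 161 and 171 CPM under Rg3. Both Rg3 libraries were above both controls, with a log2 fold change of 0.15 (SE 0.13, edgeR adjusted p = 0.999). ORC6, a small subunit of the origin recognition complex, had the highest fitted value of all members. It measured 17.4 and 20.2 CPM in the controls, then 19.3 and 25.1 CPM under Rg3, where Rg3 replicate 1 fell between the controls (log2 fold change 0.24, SE 0.18). ORC1, the subunit whose level is known to vary over the cell cycle, measured 90.4 and 94.0 CPM in the controls, then 86.0 and 87.7 CPM under Rg3. Both Rg3 libraries were slightly below the controls (log2 fold change −0.09, SE 0.13).

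CDT1, the loading factor that is destroyed once S phase starts, gave the widest interval. It measured 20.4 and 17.9 CPM in the controls, 26.8 CPM in Rg3 replicate 1 and 14.1 CPM in Rg3 replicate 2. The Rg3 libraries lay on opposite sides of both controls, so the log2 fold change of 0.10 (SE 0.28) stands for no single library. Leaving out Rg3 replicate 2 gave 0.49, and leaving out Rg3 replicate 1 gave −0.43.

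The 6 genes of the MCM ring, the core of the replicative helicase, differed little. Of these 1 was above 0 and 5 were below, within −0.10 to 0.14, and 0 passed the test. MCM6 measured 74.7 and 83.6 CPM in the controls, then 87.3 CPM in both Rg3 libraries, above both controls (log2 fold change 0.14, SE 0.13). MCM3 measured 299.5 and 312 CPM in the controls, then 282 and 294 CPM under Rg3. MCM4 measured 424 and 435 CPM in the controls, then 394 and 409.6 CPM under Rg3, and MCM7 measured 381 and 376 CPM, then 373 and 368 CPM. In these 3 genes both Rg3 libraries were below both controls, by log2 fold changes of −0.09, −0.10 and −0.03 with an SE of 0.13 each. MCM2, at 409 and 383 CPM in the controls and 411 and 379 CPM under Rg3, had a wider range with Rg3 than between the controls. MCM5 measured 208 and 193 CPM in the controls but 213 and 166 CPM under Rg3, again on either side of the controls.

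The genes that turn the loaded ring into an active helicase had 3 values above 0 and 3 below, and 0 passed. GINS1, GINS2, GINS3 and GINS4 encode the 4 subunits of the GINS complex, and their log2 fold changes were 0.02, 0.003, −0.13 and 0.13 (SE 0.21, 0.14, 0.16 and 0.15). GINS1 measured 21.1 and 28.5 CPM in the controls, then 21.7 and 28.6 CPM under Rg3, so its libraries differed within each group while the groups overlapped. GINS3, at 15.9 and 17.7 CPM in the controls and 15.5 and 15.2 CPM under Rg3, was the one GINS gene with both Rg3 libraries below the controls. CDC45, which completes the helicase, measured 39.9 and 42.1 CPM in the controls, then 38.5 and 43.5 CPM under Rg3 (log2 fold change −0.001, SE 0.14). MCM10, which acts when the helicase starts to unwind DNA, measured 57.7 and 65.5 CPM in the controls, then 51.6 and 63.1 CPM under Rg3.

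For the sliding clamp PCNA the values were 144 and 150.2 CPM in the controls and 143 and 162 CPM under Rg3 (log2 fold change 0.05, SE 0.14). The Rg3 libraries bracketed the controls. The clamp loader subunits RFC2, RFC3, RFC4 and RFC5 had log2 fold changes of −0.03, 0.16, 0.12 and −0.02. RFC4 measured 47.0 and 46.2 CPM in the controls, 42.5 CPM in Rg3 replicate 1 and 59.2 CPM in Rg3 replicate 2. RFC3 measured 50.5 and 55.1 CPM in the controls, then 49.4 and 68.4 CPM under Rg3. All 5 genes of clamp and loader were higher in Rg3 replicate 2 than in Rg3 replicate 1, and the groups overlapped in each of them.

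The 7 genes of the replicative polymerases and primase had 3 values above 0 and 4 below, and 0 passed. POLE, the catalytic subunit of the leading-strand polymerase, measured 113 and 98.5 CPM in the controls, 129 CPM in Rg3 replicate 1 and 80.1 CPM in Rg3 replicate 2. POLD1, the catalytic subunit of the lagging-strand polymerase, measured 59.2 and 53.6 CPM in the controls, then 71.8 and 46.4 CPM under Rg3. In both genes one Rg3 library was above and the other below both controls. The partner subunits POLE2 and POLD3 were higher in Rg3 replicate 2. POLE2 measured 16.04 and 14.0 CPM in the controls, then 14.0 and 16.7 CPM under Rg3, and POLD3 measured 35.2 and 39.0 CPM, then 33.6 and 40.2 CPM. Another subunit of the POLD1 enzyme, POLD2, which is not a member and was named after its values were seen, went the way of POLD1, with 205 CPM in Rg3 replicate 1 and 168 CPM in Rg3 replicate 2. POLE3, POLE4 and POLD4, also outside the members, did not. In Rg3 replicates 1 and 2 they measured 116 and 153, 30.2 and 30.5, and 9.93 and 10.1 CPM. POLA1, which extends the primers, was at a log2 fold change of 0.006 (SE 0.15), and its partner POLA2 was at −0.03 (SE 0.13). The primase subunit PRIM1 measured 36.4 and 38.7 CPM in the controls, then 30.03 and 40.4 CPM under Rg3.

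The 3 genes of flap processing, ligation and exonuclease activity gave 2 values above 0 and 1 below. FEN1, the nuclease that trims flaps, measured 205 and 206 CPM in the controls, then 204 and 218 CPM under Rg3 (log2 fold change 0.03, SE 0.13). LIG1, the ligase that seals the nicks, measured 63.6 and 55.4 CPM in the controls, then 62.0 and 44.9 CPM under Rg3 (log2 fold change −0.15, SE 0.18). The exonuclease EXO1 measured 94.7 and 99.0 CPM in the controls, then 96.4 and 112 CPM under Rg3. None of these separated the groups.

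All 3 genes of nucleotide supply had a value above 0, and 0 passed the test. RRM2, the subunit of ribonucleotide reductase that limits its activity in S phase, measured 78.2 and 86.6 CPM in the controls, then 91.9 and 97.1 CPM under Rg3. Both Rg3 libraries were above both controls, with a log2 fold change of 0.20 (SE 0.13, edgeR adjusted p = 0.999). RRM1, the large subunit, measured 431 and 475 CPM in the controls, 388 CPM in Rg3 replicate 1 and 555 CPM in Rg3 replicate 2, outside the controls on both sides. TYMS, which makes thymidylate, measured 29.7 and 32.0 CPM in the controls, then 32.6 and 30.02 CPM under Rg3.

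Among the G1/S regulators E2F2, a transcription factor that activates replication genes, stood lowest. It measured 48.8 and 44.5 CPM in the controls, 40.3 CPM in Rg3 replicate 1 and 27.5 CPM in Rg3 replicate 2. Both Rg3 libraries were below both controls, and the second was well below the first. The fitted fold was 0.728 (95% interval 0.529 to 1.001), a log2 fold change of −0.46 (SE 0.20), with an edgeR p of 0.050 and an adjusted p of 0.999. It was not called in the fit of all libraries. Without Rg3 replicate 1 the log2 fold change was −0.76, and without Rg3 replicate 2 it was −0.21, each with 1 Rg3 library left. The size of the value thus rests on Rg3 replicate 2, while its sign held without either library.

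Its relative E2F1 measured 43.0 and 37.4 CPM in the controls, then 48.8 and 36.0 CPM under Rg3 (log2 fold change 0.08, SE 0.18). The Rg3 libraries lay on either side of the controls. CCNE1 and CCNE2, the E-type cyclins that drive entry into S phase, were at 16.2 and 16.3 CPM and at 19.6 and 20.2 CPM in controls. With Rg3 CCNE1 measured 12.6 and 16.6 CPM and CCNE2 measured 17.7 and 23.8 CPM. Rg3 replicate 1 was the lowest of the 4 libraries for both cyclins and Rg3 replicate 2 the highest, and the log2 fold changes were −0.15 and 0.06 (SE 0.18 each).

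CLSPN encodes claspin, which carries the checkpoint signal from ATR to CHEK1 at stalled forks. It measured 68.0 and 66.8 CPM in the controls, then 63.4 and 62.2 CPM under Rg3, with both Rg3 libraries below both controls at a log2 fold change of −0.10 (SE 0.13). SLBP, which binds the stem-loop of histone mRNA in S phase, measured 73.3 and 81.6 CPM in the controls, then 65.8 and 88.5 CPM under Rg3. Its Rg3 libraries bracketed the controls.

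The Rg3 libraries differed more from each other than the controls did over these genes, as they did over all genes tested. The SD of the log2 CPM difference was 0.35 between the Rg3 libraries and 0.14 between the controls over the members. It was 0.51 and 0.37 over all genes, and 0.31 and 0.076 over the mitosis genes described below. The difference between Rg3 replicate 1 and Rg3 replicate 2 was larger in size than that between the controls in 31 of the 40 members. Its median size was 0.26 on the log2 CPM scale, against 0.11 for the controls. In 30 of the 40 the difference between the Rg3 libraries was over 2 times its counting error, and in 21 that between the controls was. A difference of over 0.5 was found for 5 members between the Rg3 libraries (25.6% of all genes) and for 0 members between the controls (10.98% of all genes, which include genes of low count). Both shares were lower among the members than among all genes.

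The split between the Rg3 libraries followed the gene. CDT1, POLE, POLD1, E2F2, LIG1, E2F1 and MCM5 were over 0.3 higher in Rg3 replicate 1, from 0.36 (MCM5) to 0.92 (CDT1). RRM1, RFC4, RFC3, SLBP, CCNE2, PRIM1, GINS1, CCNE1 and ORC6 were over 0.3 higher in Rg3 replicate 2, up to 0.52 for RRM1. All 7 of the first group were also higher in control 1 than in control 2, by 0.11 to 0.20, and 8 of the 9 in the second group were higher in control 2, with RFC4 as the exception. Across the 40 genes Pearson's r between the difference of the Rg3 libraries and that of the controls was 0.680 (Spearman's rho 0.560). Across the 8759 genes with a mean over 10 CPM, which all 40 members had, r was 0.379. Genes of one library share its preparation and are not independent, so these values describe the libraries. The share of G and C in the promoter windows was weakly related to the difference between the Rg3 libraries, with r of 0.255 over 35 members and 0.261 over 6294 genes above 10 CPM. What set the split was not tested.

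**Figure D3:**
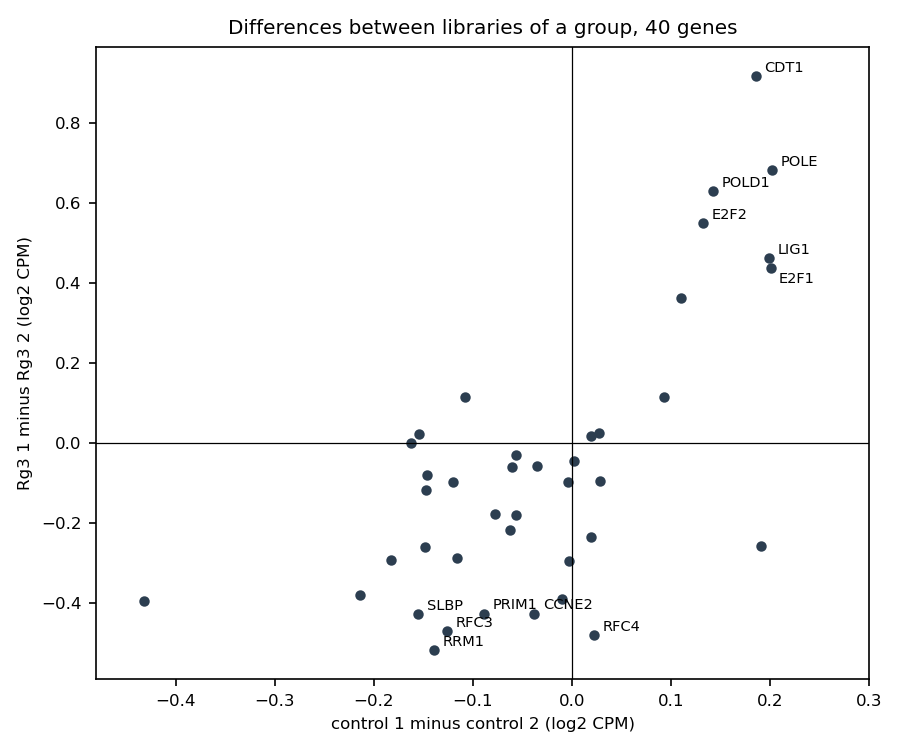
Difference between the Rg3 libraries (vertical, log2 CPM) against the difference between the control libraries (horizontal, log2 CPM) for the 40 genes; genes over 0.4 from 0 on the vertical axis are named. CDT1 at 0.92 and RRM1 at −0.52 are the ends of the vertical range, and the control differences span −0.43 to 0.20.

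The sign of the members' median depended on the Rg3 library left out. Against the mean of the controls 13 of the 40 members were higher in Rg3 replicate 1 and 24 were higher in Rg3 replicate 2. Of all 16323 genes tested 8026 and 8135 were. Leaving out Rg3 replicate 2 gave a median of −0.08 over the members, and leaving out Rg3 replicate 1 gave 0.07. Further, 13 members were above 0 without Rg3 replicate 2 where 20 were in the full fit. Rg3 replicate 2 also had the lowest share of mitochondrially encoded RNA, at 7.25% of counts against 8.48% to 9.48% in the others, and the fewest genes with a count (21917 against 22291 to 22776). The part of these library differences in the members' values was not tested. The sign of the fitted value held in every fit without 1 library for 13 members. These were CDC6, GINS4, MCM6, ORC6 and RRM2 above 0 and CLSPN, E2F2, GINS3, MCM3, MCM4, MCM7, ORC1 and POLA2 below 0. Some of these signs rest on values near 0, since over the same fits POLA2 ran from −0.046 to −3.7e-05, GINS4 from 0.0070 to 0.25 and ORC6 from 0.036 to 0.42.

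A wider list of 65 other replication and G1/S genes also held no called gene, with 64 matched by symbol and tested. Of these 37 were above 0 and 27 below, with a median of 0.04, and edgeR called 0 of the 64 over all genes tested, with 1 at an unadjusted p under 0.05. That gene was POLD4, the small subunit of the lagging-strand polymerase, at 13.2 and 15.4 CPM in the controls, then 9.93 and 10.1 CPM under Rg3. Both Rg3 libraries agreed closely and lay below the controls, with a log2 fold change of −0.52 (SE 0.18, edgeR adjusted p = 0.966). DTYMK, a thymidylate kinase, and RAD1, a part of the checkpoint clamp, had the next smallest p. Their log2 fold changes were 0.29 (SE 0.14) and 0.30 (SE 0.15), with adjusted p of 0.999 in edgeR.

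In that list the licensing inhibitor GMNN had a log2 fold change of 0.18 (SE 0.17). DBF4, which activates the origin-firing kinase CDC7, had 0.33 (SE 0.18), with 15.1 and 16.1 CPM in the controls and 17.2 and 22.0 CPM under Rg3, and CDC7 itself had 0.03 (SE 0.21). The 3 subunits of the single-strand binding protein RPA had 0.09 (RPA1), 0.04 (RPA2) and −0.11 (RPA3). The thymidine kinase TK1 had 0.08, and the cyclin E partner CDK2 and the E2F inhibitor RB1 had −0.06 and 0.005. Checkpoint kinases CHEK1 and ATR had 0.13 and −0.11, and the chromatin assembly factors CHAF1A and CHAF1B had −0.11 and −0.12. None of these passed the test. The median of this list was −0.07 without Rg3 replicate 2, with 22 of 64 above 0.

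Genes of mitosis, which peak later in the cycle, were set beside the replication genes as a list of 28. Their median log2 fold change was 0.13, with 26 of 28 above 0 (52.5% of all genes were). In 10 of 28 both Rg3 libraries lay above both controls (15.3% of all genes), and in 1 both lay below (17.0% of all genes). The replication genes had 20 of 40 above 0, 3 of 40 with both Rg3 libraries above and 8 of 40 with both below. Neither list had a called member in the full fit, and the difference between the lists was not tested. In Rg3 replicate 1 14 of the 28 mitosis genes were above the mean of the controls and in Rg3 replicate 2 23 were. Without Rg3 replicate 2 14 of 28 were above 0 with a median of 0.013, and without Rg3 replicate 1 the median was 0.24. The median of Rg3 replicate 1 minus Rg3 replicate 2 was −0.23 over the mitosis genes and −0.10 over the replication genes.

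**Figure D4:**
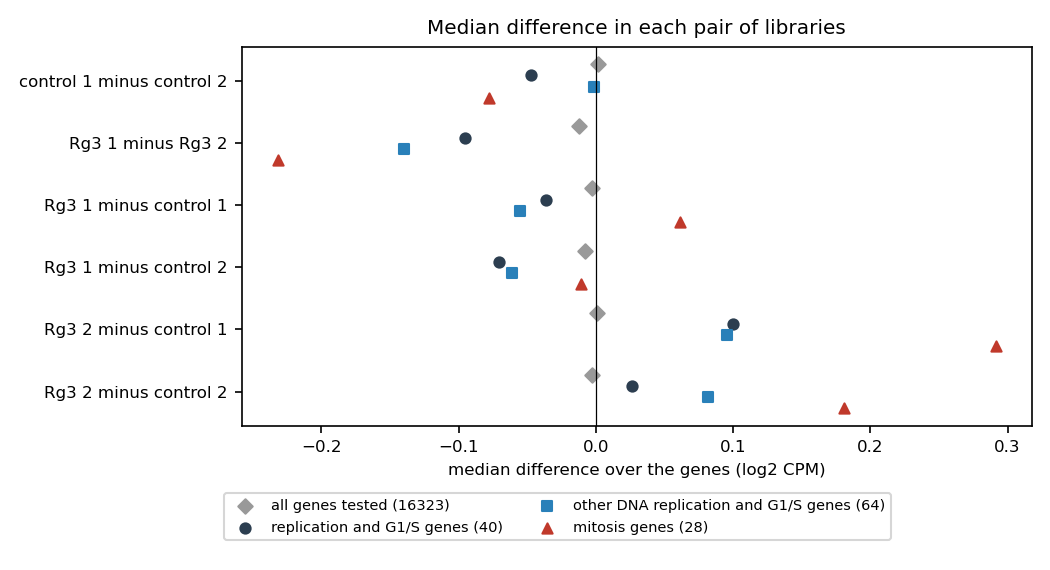
Median difference in log2 CPM for each pair of libraries over all 16323 genes tested, the 40 replication and G1/S genes, 64 other genes of the pathway and 28 mitosis genes; the first 2 rows are pairs within a group. The replication genes lie between −0.10 and 0.10 in all 6 pairs, and the mitosis genes reach 0.29 in Rg3 replicate 2 minus control 1.

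Reads of a few members could have gone to copies or overlapping genes. ENOSF1, which overlaps TYMS on the other strand, gave 1235 and 1283 counts in the controls, then 1368 and 1035 under Rg3, and TYMS gave 732 and 846, then 1003 and 723. The strand setting of the counting is not known, so the 2 genes may share reads. The pseudogene RRM2P3 gave 41 and 48 counts in the controls, then 50 and 55 under Rg3, against at least 1927 for RRM2 in every library. FEN1P1 had 59 and 62 counts, then 44 and 48. The rows PCNAP1, PCNAP2, PCNAP3, PCNAP4, PCNA-AS1, RFC3P1, RRM2P2 and RRM2P4 had at most 18 counts in any library.

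The libraries held 24482846 and 26731913 counts in the controls and 30132517 and 24571619 with Rg3. Epithelial keratins were abundant, with KRT7, KRT8 and KRT18 together with KRT19 and EPCAM at 5698 to 7734 CPM. EPCAM had 0 counts in every library, for which 3 counts or up to 0.125 CPM would be the limit, and KRT19 had at most 2 counts. Of the genes listed for this line and ovarian cancer, ERBB2, the receptor gene amplified in this line, measured 45.2 to 53.5 CPM. MSLN measured 43.0 to 66.4 CPM and MUC16 0.623 to 1.79 CPM, and PAX8 and WT1 were at most 0.681 CPM. Leukocyte, endothelial and fibroblast lists summed to at most 21.8, 19.8 and 39.1 CPM. Nearly all of these sums came from 1 gene in each list, CD68 at 10.5 to 21.3 CPM, CDH5 at 16.2 to 19.5 CPM and PDGFRB at 27.7 to 34.3 CPM. The other leukocyte, endothelial and fibroblast markers were low, with CD3E and KDR at 0 counts, PTPRC at most 3 and COL1A1 the highest at 1.62 to 4.68 CPM.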

How the data were processed

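Raw counts per gene symbol were deposited by the authors, 1 column per library; the build was GRCh37, per the submitters' processing notes. The aligner, counting tool, annotation and strand setting are not given in the sources used here. Per the labels' protocols, ribosomal RNA was depleted without poly(A) selection.

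Groups followed the sample titles. Genes were kept by filterByExpr (minimum count 10, minimum total 15), which left 16323, and fitted together in R 4.3.3 with edgeR 4.0.16 (TMM scaling, quasi-likelihood test, treatment as the only term, 2 residual degrees of freedom), with Benjamini-Hochberg adjustment over all genes and a threshold of 0.05. Standard errors and 95% intervals came from the F statistic. Log2 CPM used a prior count of 2. The fit was tested on simulated data, with counts drawn independently for each gene. These held no library difference shared across genes, so that test does not cover the differences described above. Alternatives were DESeq2 1.42.0, limma 3.58.1 voom, other scalings, no filter, a replicate block and leaving out each library. An exact permutation test of 2 against 2 libraries cannot go below p = 0.333 and was not used.

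All 40 members are named, with 14 fixed genes of the wider list, of which 1 is not reported here, and the 3 of smallest p. Members and lists were chosen with earlier results of these data known.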

Additional observations from a re-analysis of the deposited data

How the results depend on the processing

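No replication gene was called in edgeR, DESeq2 or voom with all 4 libraries, under any scaling or filter tried. Few of all genes were called there either, at most 90 higher and 124 lower of 25668, without a low-count filter. Fits without 1 library leave 1 library in a group, so their calls are not given. Over those fits the number of members above 0 ran from 13 to 24 and their median from −0.083 to 0.074. For the wider list the number above 0 ran from 22 to 41 and its median from −0.066 to 0.087. For the mitosis genes the number called higher ran from 0 to 3 (CCNA2, MAD2L1 and TTK without Rg3 replicate 1, and MKI67 without Rg3 replicate 2), the number above 0 from 14 to 27 and their median from 0.013 to 0.24. The E2F-type letters were in 40% of windows when only bases before the start were searched.

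Over all 16323 genes the deviations of control 1 and Rg3 replicate 1 from their group means had a correlation of 0.149 (0.379 over the genes above 10 CPM and 0.680 over the members). The labels tie no number to a shared batch and there are only 2 pairs, so the numbers were not taken to pair the samples, and whether same-numbered libraries share an effect was not settled. With that number as a replicate block (1 residual degree of freedom) edgeR called 69 genes higher and 86 lower, against 5 and 0, and 0 members. E2F2 then had a log2 fold change of −0.48 and an adjusted p of 0.2095, and the members' median was −0.00095. The median of all genes stayed within −0.015 to 0.029 in every setting.

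The sign of a member near 0 depended on the setting, and the cause was not tested. With DESeq2 the log2 fold change turned for CDC45 (0.0026). With DESeq2 size factors in edgeR the log2 fold change turned for CDC45 (0.0026). With TMM factors from genes other than small structural RNA the log2 fold change turned for GINS2 (−0.0022). With mitochondrial RNA left out too, a setting added after the data were seen, the log2 fold change turned for GINS2 (−0.0023). With voom the log2 fold change turned for POLA1 (−0.00023). Without a low-count filter the log2 fold change turned for MCM2 (0.0028), CDC45 (0.0072), POLD3 (0.00023), SLBP (0.00091). With upper quartile scaling the log2 fold change turned for GINS1 (−0.011), GINS2 (−0.026), POLA1 (−0.022), POLE2 (−0.0019), TYMS (−0.0091). Over the fits without 1 library it turned for 27 members, whose ranges were CCNE1 (−0.36 to 0.035), CCNE2 (−0.17 to 0.26), CDC45 (−0.090 to 0.089), CDT1 (−0.43 to 0.49), E2F1 (−0.15 to 0.28), EXO1 (−0.0063 to 0.21), FEN1 (−0.014 to 0.084), GINS1 (−0.19 to 0.25), GINS2 (−0.058 to 0.081), LIG1 (−0.40 to 0.061), MCM10 (−0.25 to 0.039), MCM2 (−0.060 to 0.053), MCM5 (−0.27 to 0.092), PCNA (−0.038 to 0.14), POLA1 (−0.14 to 0.15), POLD1 (−0.28 to 0.35), POLD3 (−0.14 to 0.12), POLE (−0.40 to 0.28), POLE2 (−0.11 to 0.16), PRIM1 (−0.32 to 0.11), RFC2 (−0.080 to 0.016), RFC3 (−0.095 to 0.38), RFC4 (−0.13 to 0.35), RFC5 (−0.18 to 0.12), RRM1 (−0.22 to 0.30), SLBP (−0.23 to 0.20), TYMS (−0.037 to 0.078). Of 480 values of members under these alternatives 53 turned and the rest kept their direction. Every member had at least 340 counts in each library. The standard error from counting alone, for a difference between the Rg3 libraries, was at most 0.10 on the log2 scale.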

Other observations

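An intron of MCM7 holds the microRNA genes MIR106B, MIR93 and MIR25, which had rows of their own in the table and were looked up after its values were seen. MIR106B gave 29 and 35 counts in the controls, then 41 and 39 under Rg3. MIR93 gave 27 and 30, then 36 and 31, and MIR25 gave 17 and 18, then 21 and 26. Their log2 fold changes were 0.23 (SE 0.32), 0.13 (SE 0.33) and 0.34 (SE 0.41), all above 0, where MCM7 itself was at −0.03, and none passed edgeR's test. In total RNA libraries reads of these rows and of unspliced MCM7 RNA cannot be told apart, and at these counts the differences were each smaller than their SE.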
